A study of Mus musculus with 6 samples.

Results

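The genes described here are 6 inhibitors of cyclin-dependent kinases, Cdkn1a, Cdkn1b, Cdkn2a, Cdkn2b, Cdkn2c and Cdkn2d, chosen by symbol from the 23366 genes counted in p53-null mouse embryos with and without a wild-type allele of each histone H3.3 gene. All 6 were in the files, and all 6 were among the 15075 genes tested. The knockout embryos carried a floxed and a null allele of both H3f3a and H3f3b (H3f3afl/- and H3f3bfl/-), while the control embryos carried a floxed and a wild-type allele of both (H3f3afl/+ and H3f3bfl/+). Every embryo in both groups was also Trp53-/- and carried Sox2-CreTg/0, on a mixed C57BL/6, CD1 and 129 background, and polyadenylated RNA was read from 3 whole embryos per group at E10.5. Sox2-Cre is a recombinase transgene active in the epiblast, so the floxed alleles of the controls were open to deletion too, and tissues that do not come from the epiblast keep theirs. Whether embryos were littermates or whether RNA was pooled is not given in the sources used here, so any p-value measures only the spread between these samples.

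Cyclin-dependent kinase inhibitors restrain the kinases that drive a cell from G1 into S phase. The Cip/Kip proteins, p21 from Cdkn1a and p27 from Cdkn1b among them, bind complexes of cyclins with several kinases, whereas the Ink4 proteins from Cdkn2a, Cdkn2b, Cdkn2c and Cdkn2d bind CDK4 and CDK6 and thereby keep the retinoblastoma protein active. Cdkn2a is read from a pair of start sites in different reading frames, giving the Ink4 protein p16 and the protein ARF, which stabilises p53 by binding Mdm2. The Ink4-Arf locus is held silent by Polycomb complexes in most embryonic tissue and is known for its activation in senescent and oncogene-stressed cells.

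The 6 libraries held 24952853 to 30461689 counts in genes. H3f3a had 70.0, 64.4 and 68.5 CPM (counts scaled to library size) in knockouts 1, 2 and 3, and 349 ± 15.4 CPM in controls (SD, n = 3), which is -2.37 ± 0.08 (SE) as a log2 fold change (edgeR, adjusted p = 1.5e-06). H3f3b averaged 455 ± 56.8 CPM in knockouts and 691 ± 31.5 CPM in controls, and its call by edgeR (adjusted p = 0.0257) was lost without knockout 3, control 1, control 2 or control 3 (0.0617 to 0.14). Whole-embryo markers were present throughout, among them the neural gene Sox2, at 98.9 ± 12.4 CPM in knockouts and 103 ± 5.63 CPM in controls, and the embryonic globin gene Hbb-y. Some other markers differed more. In the list of 15 with Sox2, 6 had groups that did not overlap, against 24.1% of all tested genes. Log2 fold changes were above 0 for 6 and below 0 for 9, with Neurog2 at -0.47 and Tubb3 at -0.44. By edgeR 1 of the 15, Kdr, was called higher (0.44, adjusted p = 0.0302), or 6.67% against 1.51% of all tested genes. By edgeR, the knockouts had 83 genes called higher and 144 called lower, and without single libraries these numbers ran from 7 to 1159 and from 53 to 504, lowest without control 2 and highest without knockout 2. They moved by over 1.5 times without any 1 library other than knockout 1.

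Cdkn2a was near the limit of detection in control embryos and was read in all 3 knockout embryos, by very different amounts. Knockouts 1, 2 and 3 gave 33, 66 and 14 counts, against 1, 2 and 2 counts in controls 1, 2 and 3. In scaled units Cdkn2a stood at 1.27, 2.44 and 0.48 CPM in the knockouts and at 0.0343, 0.068 and 0.0707 CPM in the controls. The groups did not overlap, but the gene was chosen with this contrast known, so this is a description and not a test. The upper 95% Poisson limit of a control count was 0.255 CPM at most. The knockout embryos differed among themselves 5.07-fold, and the interval of knockout 2 (1.89 to 3.10 CPM) lay wholly above those of knockout 1 (0.875 to 1.79 CPM) and knockout 3 (0.263 to 0.806 CPM). These intervals cover counting error only.

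The summed counts of Cdkn2a, 113 in knockouts and 5 in controls, gave a ratio of 23.9 at scaled library size, with an exact 95% interval of 9.94 to 75.0 for counting error only. The fitted log2 fold change was 4.49 ± 0.76 (SE), a size that rests on 5 control counts in all. It was 3.81 without knockout 2 and 4.91 without knockout 3. Cdkn2a had been noticed in this same contrast before it was chosen, and only the knockout libraries carried it past the filter on low counts. These values therefore describe the embryos, and no test of them is used as support. In the fit over all genes edgeR called 1 of the 6 genes, Cdkn2a, whose groups also did not overlap. Among all tested genes 1.51% were called in either direction, 0.551% were called higher, 0.955% were called lower, and 24.1% had groups that did not overlap. Nothing is read from the call of Cdkn2a, since the choice of the gene used the contrast.

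**Figure D1:**
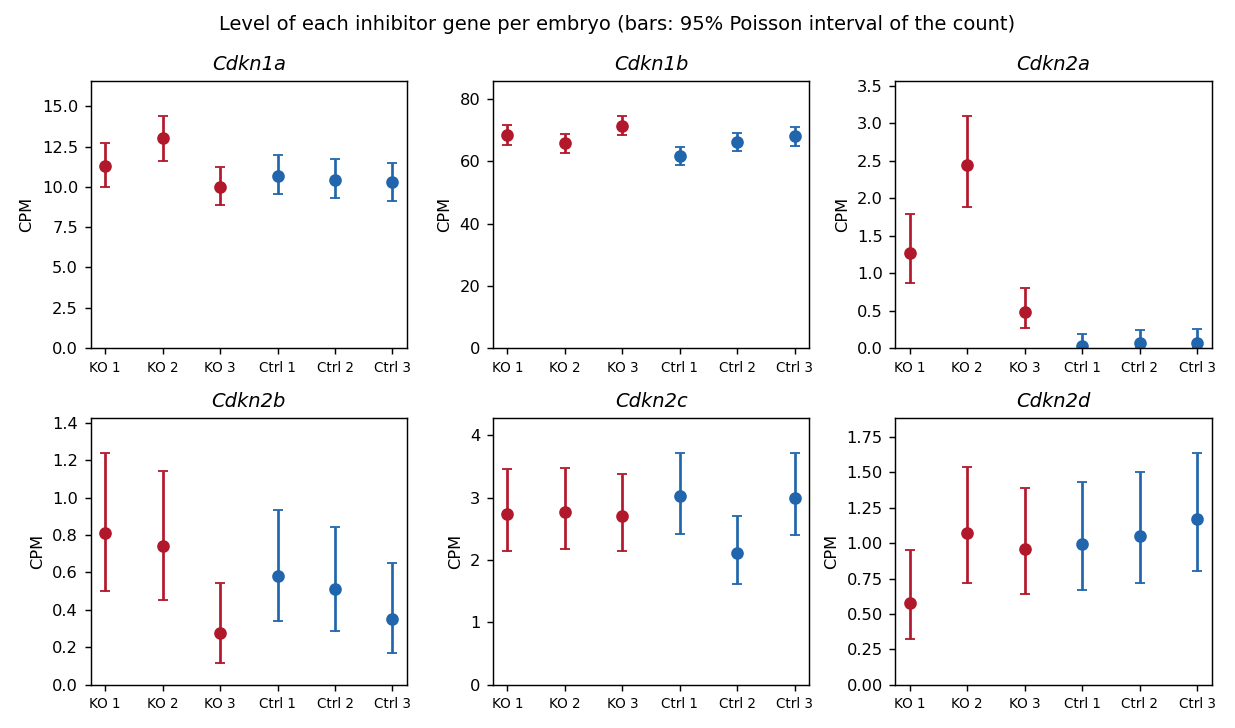
Level of each of the 6 genes in CPM (y axes, each from 0) in the 3 knockout embryos (KO, red) and the 3 control embryos (Ctrl, blue); points are single embryos and bars are exact 95% Poisson intervals of the count. Cdkn2a is the only gene whose knockout points, 0.48 to 2.44 CPM, all lie above its control points.

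The count row of Cdkn2a pools its p16 and ARF transcripts, so the counts do not say which product the embryos made. In the GENCODE M21 annotation the transcript from the upstream start and the transcript from the downstream start share 49.1% of the 1172 exonic bases, and 27.3% and 23.6% are private to each. The windows around both starts, from 250 bases before to 50 bases after, are shown because either can be the source of the 113 knockout counts, and that of Cdkn2b because this neighbour on the same chromosome and strand did not share the difference. They were taken from RefSeq on GRCm38.p6, minus strand, whereas the counts were made on mm9. Capitals mark matches on either strand to an E2F site (TTTCCCGC or TTTGGCGC) or a GC box (GGGCGG).
Cdkn2a upstream start, ARF transcript, chr4:89294570-89294869: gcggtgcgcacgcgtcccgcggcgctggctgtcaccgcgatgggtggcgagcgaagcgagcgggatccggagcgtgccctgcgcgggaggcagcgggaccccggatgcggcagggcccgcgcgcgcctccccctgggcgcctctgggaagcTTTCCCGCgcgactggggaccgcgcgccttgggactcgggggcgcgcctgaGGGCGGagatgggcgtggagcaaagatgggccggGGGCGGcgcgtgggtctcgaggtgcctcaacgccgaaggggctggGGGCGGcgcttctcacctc
Cdkn2a downstream start, p16 transcript, chr4:89282143-89282442: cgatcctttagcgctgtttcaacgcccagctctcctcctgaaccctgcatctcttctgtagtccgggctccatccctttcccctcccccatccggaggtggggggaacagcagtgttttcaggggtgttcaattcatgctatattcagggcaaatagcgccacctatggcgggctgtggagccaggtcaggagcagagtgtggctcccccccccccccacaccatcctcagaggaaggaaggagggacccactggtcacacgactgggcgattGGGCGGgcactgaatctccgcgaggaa
Cdkn2b, chr4:89310983-89311282: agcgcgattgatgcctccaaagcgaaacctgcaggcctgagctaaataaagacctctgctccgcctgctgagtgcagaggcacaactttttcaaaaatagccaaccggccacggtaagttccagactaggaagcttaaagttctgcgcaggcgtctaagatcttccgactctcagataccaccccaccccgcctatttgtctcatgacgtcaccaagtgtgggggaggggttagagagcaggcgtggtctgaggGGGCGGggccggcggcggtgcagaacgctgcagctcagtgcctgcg
The ARF window held 45 CpG dinucleotides, more than 98.1% of 32851 windows of this kind, 1 E2F match and 3 GC boxes. The p16 window held 12 CpG, no E2F match and 1 GC box, and the Cdkn2b window 18 CpG, no E2F match and 1 GC box. None of the 3 held a TATA box (TATAAA), and none of their matches overlapped. Over all windows 1.56% held an E2F match, 35.7% a GC box and 13.6% a TATA box. A match is a description of letters and not of a bound factor.

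Cdkn2b, which encodes the Ink4 protein p15 and lies beside Cdkn2a on chromosome 4, was low in both groups. It had 21, 20 and 8 counts in knockouts 1, 2 and 3 and 17, 15 and 10 counts in controls 1, 2 and 3. The levels were 0.809, 0.739 and 0.275 CPM in knockouts and 0.583, 0.51 and 0.353 CPM in controls. The groups overlapped, with knockout 3 the lowest of all 6 embryos and knockouts 1 and 2 the highest. The ratio of the summed counts was 1.23 with an exact 95% interval of 0.8 to 1.91 for counting error only. The fitted log2 fold change was 0.31 ± 0.44 (SE), which was 0.06 without knockout 1 and 0.68 without knockout 3. Transcripts of Cdkn2a and Cdkn2b share no stretch of 50 bases in GENCODE M21, so no read of that length or longer would match both exactly.

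Cdkn2c and Cdkn2d, which encode the Ink4 proteins p18 and p19, showed no separation of the groups. Cdkn2c had 71, 75 and 79 counts in knockouts against 88, 62 and 85 in controls, or 2.74 ± 0.0296 CPM and 2.71 ± 0.521 CPM (SD, n = 3). All 3 knockouts lay inside the range of the controls, and the ratio of summed counts was 1.01 (0.839 to 1.22). The fitted log2 fold change was 0.02 ± 0.20 (SE), and it was -0.14 without control 2.

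Cdkn2d had 15, 29 and 28 counts in knockouts and 29, 31 and 33 counts in controls. That was 0.87 ± 0.259 CPM in knockouts and 1.07 ± 0.0871 CPM in controls (SD, n = 3). Knockout 1, at 0.578 CPM, and knockout 3, at 0.961 CPM, lay below every control (0.995 to 1.17 CPM), while knockout 2, at 1.07 CPM, lay within the control range. The ratio was 0.818 (0.593 to 1.13) and the fitted log2 fold change -0.29 ± 0.29 (SE), or -0.07 without knockout 1.

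The Cip/Kip genes Cdkn1b and Cdkn1a were the most abundant of the 6, and their groups overlapped. Cdkn1b had 68.5, 65.8 and 71.4 CPM in knockouts and 61.6, 66.2 and 68.0 CPM in controls, from 1779 to 2081 counts in knockouts and 1796 to 1947 counts in controls. The lowest embryo was control 1 and the highest knockout 3, at a ratio of 1.05 (1.01 to 1.09, counting error only) and a log2 fold change of 0.07 ± 0.08 (SE).

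Cdkn1a is the best known transcriptional target of p53, a protein no embryo here could make. It had 11.3, 13.0 and 10 CPM in knockouts and 10.7, 10.4 and 10.3 CPM in controls. The control embryos lay within 1.04-fold of each other and the knockouts within 1.29-fold, with knockout 2 the highest and knockout 3 the lowest of all. Its log2 fold change was 0.12 ± 0.13 (SE), and 0.02 without knockout 2. In GENCODE M21 a gene on the opposite strand, AC167363.2, overlaps exons of Cdkn1a. The strand setting of the counting is not given in the sources used here, so reads of that gene and of Cdkn1a may not have been told apart.

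Per exon length, the order of the genes other than Cdkn2a was the same in both groups. In knockouts Cdkn1b stood at 15.1 ± 0.615 CPM per kb of exon, Cdkn1a at 4.2 ± 0.543, Cdkn2a at 1.19 ± 0.84, Cdkn2c at 1.02 ± 0.011, Cdkn2d at 0.59 ± 0.175 and Cdkn2b at 0.437 ± 0.209 (SD, n = 3). In controls the order was Cdkn1b at 14.3 ± 0.725, Cdkn1a at 3.86 ± 0.0844, Cdkn2c at 1.01 ± 0.194, Cdkn2d at 0.727 ± 0.059, Cdkn2b at 0.347 ± 0.0844 and Cdkn2a at 0.0492 ± 0.0173. Cdkn2a was thus last of 6 in controls, apart from Cdkn2b, and its mean stood between those of Cdkn1a and Cdkn2c in knockouts. The neighbours whose ranges overlapped were Cdkn2a with Cdkn2c and Cdkn2d with Cdkn2b in knockouts, and Cdkn2c with Cdkn2d in controls. Per coding length Cdkn2a came after Cdkn2c in the knockouts, with ranges apart, so its place above Cdkn2c rests on the length used.

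**Figure D2:**
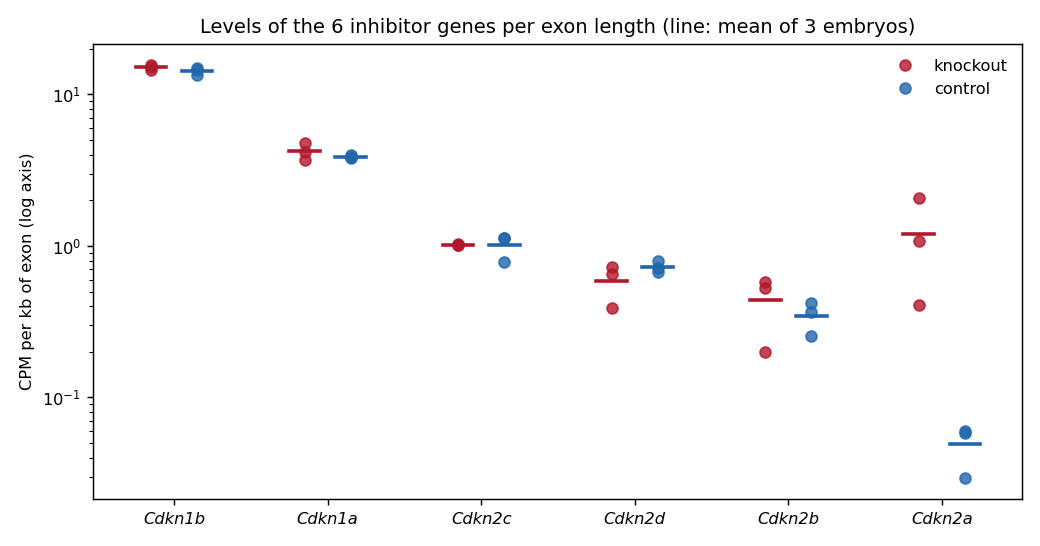
Level of each gene in CPM per kb of exon on a log axis, with knockouts (red) left of controls (blue); points are single embryos and lines are means of 3. The 5 genes other than Cdkn2a lie at like levels in both groups, while Cdkn2a lies at 0.41 to 2.08 in knockouts and 0.0293 to 0.0603 in controls.

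Within the Ink4 genes, Cdkn2a made up 35.3%, 47.6% and 18.1% of the length-scaled sum in knockouts 1, 2 and 3, against 1.3%, 3.02% and 2.71% in controls 1, 2 and 3. Without Cdkn2a the Ink4 sum was 2.05 ± 0.22 in knockouts and 2.08 ± 0.189 in controls (CPM per kb, SD, n = 3). Over all 6 genes the sum was 22.5 ± 0.995 in knockouts and 20.3 ± 0.608 in controls, with Cdkn2a contributing 1.89% to 8.81% of it in knockouts and 0.148% to 0.288% in controls. The variation fitted by edgeR is drawn towards that of genes of like level, and it rose in the order in which the level fell in controls. In knockouts the order of levels differed by the place of Cdkn2a. Fitted biological coefficients of variation were 7.69% for Cdkn1b, 11.8% for Cdkn1a, 15.9% for Cdkn2c, 18.3% for Cdkn2d, 27% for Cdkn2b and 43.2% for Cdkn2a, against 12.2% in common for all genes. The observed coefficients in knockouts did not follow that order, at 12.9% for Cdkn1a and 1.08% for Cdkn2c.

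Other measures differed between the groups or among the knockouts, in orders of their own. In the list of 16 genes of the response to low oxygen the summed level was 2240, 6310 and 3040 CPM in knockouts 1, 2 and 3 and 1880 to 2350 CPM in controls, with no gene of the list at 0. Knockout 2 was highest in both, but knockout 1 had more Cdkn2a than knockout 3 and a lower sum of that list. Most of that sum was Ldha and Pgk1. All 16 genes had a log2 fold change above 0, and 8 had groups that did not overlap, against 24.1% of all tested genes. By edgeR 1 of the 16, Vegfa, was called (adjusted p = 0.00699), or 6.25% against 1.51% of all tested genes. Vegfa had 84.9, 128 and 131 CPM in knockouts 1, 2 and 3 and 33.2 to 49.2 CPM in controls. Alignments outside genes made up 18.3%, 10.6% and 18.0% in knockouts 1, 2 and 3 and 9.79% to 13.1% in controls, so knockout 2, the highest in Cdkn2a, lay in the control range. Of 16 tested macrophage genes edgeR called 15 lower, or 93.8% against 0.955% of all tested genes. Cd68 was not called, at a log2 fold change of -0.06. Cd163, not tested, had 10, 6 and 12 counts in knockouts 1, 2 and 3 and 5, 2 and 3 in controls. The list summed to 5.70, 4.36 and 5.35 CPM in knockouts 1, 2 and 3 and 69.3 to 83.0 CPM in controls. C1qb, C1qc and Ctss had 0 counts in every knockout. The part of these measures in the level of Cdkn2a was not tested. In bulk RNA, more cells with a transcript and more transcript per cell cannot be told apart.

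Markers of trophoblast, decidua, germ cells, blood and endoderm were read beside the inhibitors. The trophoblast genes Prl2c2, Tpbpa and Psg21 had 0 counts in all 6 libraries, where 3 counts are at most 0.116 CPM. Since alignments that were not unique were left out, 0 counts need not mean absence. The list of 12 summed to 15.1 to 19.1 CPM in knockouts and 14.8 to 19.0 CPM in controls. Most of that sum was Hand1, which the embryo proper also makes, at 14.0 ± 2.4 CPM in knockouts and 11.6 ± 2.05 CPM in controls (SD, n = 3). Of the 4 trophoblast genes tested none was called by edgeR, 2 had an unadjusted p under 0.05, and the median log2 fold change was -0.55. Prl3b1, a placental lactogen gene, had 10, 6 and 8 counts in knockouts and 13, 22 and 14 in controls, and Synb, a syncytin gene, 24, 10 and 44 counts in knockouts and 42, 53 and 63 in controls. The decidual gene Prl3c1 had 0 counts in all 6 libraries, and Prl8a2 had 0 in every knockout and at most 1 in a control. That list of 11 summed to 59.1 to 67.7 CPM in knockouts and 57.1 to 60.4 CPM in controls. Most of that sum was Des, at 31.5 and 30.3 CPM in knockouts and controls, and Wnt4, at 16.1 and 15.4 CPM. The sum is therefore not a measure of decidua by itself. Germ cell genes, 8 in all, summed to 12.5 to 15.2 CPM in knockouts and 11.1 to 11.9 CPM in controls, without overlap. Most of that sum was Prdm1, at 7.30 and 5.32 CPM in knockouts and controls, and Tdrd1, at 4.84 and 3.74 CPM. Of the 4 tested, 3 had a log2 fold change above 0 and 1, Ddx4, below 0, with none called by edgeR. Among the 8, Dppa3 had 0 counts in every knockout and 5, 2 and 3 in controls. Pou5f1 had 1, 0 and 0 in knockouts and 6, 5 and 4 in controls. The sum of 14 erythroid genes was 5730 to 9390 CPM in knockouts and 7820 to 9980 CPM in controls. The adult globin genes Hba-a1 and Hba-a2 had 0 counts in all 6 libraries, and Hbb-b1 had 0 in every knockout and at most 1 in a control. Alignments that were not unique, 18.2% to 22.6%, were not counted, so these values do not show that adult globin RNA was absent. Genes of yolk sac and liver endoderm, 12 with Apoa4 at 0 in every knockout and at 2, 2 and 1 counts in controls, summed to 233, 179 and 111 CPM in knockouts 1, 2 and 3 and to 331, 217 and 203 CPM in controls 1, 2 and 3. Most of that sum was Afp, at 105 and 157 CPM in knockouts and controls. Of 10 genes tested 9 had log2 fold changes below 0. By edgeR 1 of the 10, Ttr, was called lower (-1.69, adjusted p = 0.00886), or 10% against 1.51% of all tested genes. Within each group the order of the sum is the order of Cdkn2b, but not over all 6 embryos. Control 3 had a higher sum than knockout 2 (203 and 179 CPM) and less Cdkn2b (0.353 and 0.739 CPM). The part of endoderm in the level of Cdkn2b was not tested.

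Genes with profiles nearest to that of Cdkn2a were picked over these same 6 libraries, so their shared peak in knockout 2 is not a separate result. Likeness was the root mean square difference of log2 CPM, centred per gene, over the 6 libraries, among 13598 genes that averaged 1 CPM or more. Cdkn2a and Cdkn2b themselves averaged less, so genes as low as these were not among the candidates. The 5 nearest to Cdkn2a were Plcxd1 and Adm at 0.79, Gm10653 at 0.82, Stc2 at 0.89 and Bhlhe40 at 0.91. Adm, the adrenomedullin gene, is also in the list of the response to low oxygen. It had 3.35, 18.4 and 4.98 CPM in knockouts 1, 2 and 3 and 1.37, 1.53 and 1.27 CPM in controls. Of the 5, Gm10653 alone resembled Cdkn2a in being higher in knockout 1 than in knockout 3, at 16.3, 24.5 and 3.09 CPM in knockouts 1, 2 and 3 and 3.33, 3.13 and 2.47 CPM in controls. The genes nearest to Cdkn2b were B3gnt9 at 0.14, Fgg, a fibrinogen chain of liver, at 0.20, and Cpn1 at 0.23.

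**Figure D3:**
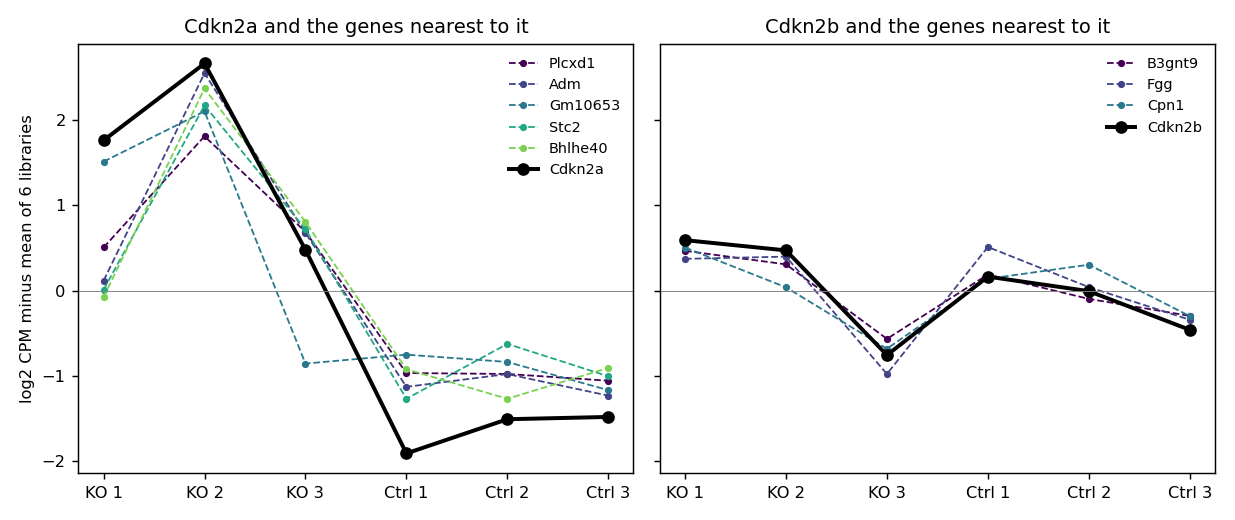
Log2 CPM minus the mean of the 6 libraries (y axis) for Cdkn2a with its 5 nearest genes (left) and Cdkn2b with its 3 nearest (right) in each knockout (KO) and control (Ctrl) embryo; lines only join the points of 1 gene, as embryos have no order. Cdkn2a and its nearest genes peak in knockout 2, and Cdkn2b is lowest in knockout 3. Nearness was measured over these 6 libraries, so a shared peak is not a separate result.

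The pathway around the inhibitors gave 1 call among 130 tested genes of 10 lists. Of 141 list genes in the files, none was called higher and 1 lower by edgeR, or 0.769% of those tested, below the background of 1.51%. In all, 27 of the 130, or 20.8%, had an unadjusted p under 0.05, against 19.2% of all 15075 tested genes. DESeq2 called 2 of the list genes higher and 2 lower, against 456 and 323 over all genes. Without knockout 2, edgeR called 7 higher and 3 lower, against 1159 and 504 over all genes. The median log2 fold change over the lists was 0.01.

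The called gene was Trp53inp1, a stress-induced target of p53 in the list for ARF and p53. It had 49.0, 34.2 and 36.0 CPM in knockouts 1, 2 and 3 and 66.7, 59.5 and 62.6 CPM in controls 1, 2 and 3. All knockouts lay below all controls, at a log2 fold change of -0.66 ± 0.13 (SE) and an edgeR adjusted p of 0.0468. The call was lost without knockout 3, control 1, control 2 or control 3 (edgeR adjusted p of 0.109 to 0.249) and with library totals as the scaling (0.105). Of the 14 genes in that list the other 13 were not called, and Trp53, null in every embryo, had 4.52 ± 1.27 CPM in knockouts and 2.75 ± 0.49 CPM in controls.

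The kinases and cyclins that Ink4 proteins act on gave no calls. Of 13 genes for cyclins and kinases of G1 and S phase none was called by edgeR, 2 had an unadjusted p under 0.05, and the median log2 fold change was 0.01. The smallest p belonged to Cdk6, a direct target of Ink4 proteins, with 13.9 CPM in knockouts and 10.4 CPM in controls on average (log2 fold change 0.42 ± 0.11, edgeR adjusted p of 0.0912, but 0.0327 by DESeq2). Ccnd3, a D cyclin, followed at 0.24 (edgeR adjusted p of 0.175). Of 17 genes of the retinoblastoma family and E2F none was called, 2 had an unadjusted p under 0.05, and the 2 smallest p-values were those of the E2F activators E2f1, at 0.23, and E2f3, at 0.17.

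Genes switched on by E2F during S phase gave no calls either. None of 21 was called by edgeR and none had an unadjusted p under 0.05, with a median log2 fold change of -0.08 and a range of -0.21 to 0.19. Mybl2, a transcription factor of cycling cells, had 62.9 CPM in knockouts and 55.3 CPM in controls, at a log2 fold change of 0.19. In the list for the turnover of p21 and p27 none of 12 was called and 3 had an unadjusted p under 0.05, with Cul4b and Skp1a, both of ubiquitin ligases, at -0.24 and -0.25.

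Known regulators of the Ink4-Arf locus gave no calls in either direction. None of 22 repressors was called, 5 (22.7%, against 19.2% of all genes) had an unadjusted p under 0.05, and the median log2 fold change was 0.05. The Polycomb genes Pcgf2 and Ring1 had the smallest p, at 0.32 (edgeR adjusted p of 0.125) and 0.53 (0.148). Without knockout 2 edgeR called both, at adjusted p-values of 0.0172 and 0.00197. That setting called 1159 genes higher and 504 lower over all genes, and 7 and 3 of the list genes, so nothing particular to these 2 is read from it. The Polycomb gene Bmi1, a long-known repressor of the locus named after its values were seen, was at -0.02, and Ezh2, the methyltransferase of H3K27, also named so, at -0.02. Of 13 activators none was called and 4 (30.8%, against 19.2% of all genes) had an unadjusted p under 0.05, with a median of 0.15. Egr1, an immediate early gene, had 6.09 CPM in knockouts and 3.80 CPM in controls (log2 fold change 0.68, edgeR adjusted p of 0.0628, but 0.0137 by DESeq2). Kdm6b, a demethylase of H3K27, was at 0.35 (0.14).

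The remaining lists were genes related to the inhibitors by name, senescence genes and chromosomal neighbours. The first held Cdkn1c, Cdkn3, Cdkn2aip, Cdkn2aipnl, Cdk2ap1 and Cdk2ap2, of which only Cdkn1c is a Cip/Kip or Ink4 gene. All 6 genes of that list had log2 fold changes below 0, from -0.32 to -0.13, with none called by edgeR. Cdk2ap2 at -0.32 and Cdk2ap1 at -0.19 were the 2 at an unadjusted p under 0.05. Cdkn1c, the third Cip/Kip gene and an imprinted one, was named after its values were seen. It was far more abundant per length than any of the 6 members described above. Its level was 176 ± 25.2 CPM per kb of exon in knockouts and 209 ± 18.3 in controls (SD, n = 3). Its log2 fold change was -0.24 ± 0.11, with an edgeR adjusted p of 0.276, or 0.048 without knockout 2. Without that library 1159 genes were called higher and 504 lower over all genes. Of 17 senescence genes 8 passed the filter and none was called, with 3 at an unadjusted p under 0.05. Igfbp7, which binds insulin-like growth factors, was at 0.64 (adjusted p of 0.185), while the median was 0.01.

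Near Cdkn2a, the metabolic enzyme gene Mtap had 123 ± 10.6 CPM in knockouts and 122 ± 13.4 CPM in controls (SD, n = 3). Dmrta1 had 3.68 ± 0.348 CPM in knockouts and 5.20 ± 0.688 CPM in controls, and its log2 fold change was -0.50 (edgeR, adjusted p = 0.165). Elavl2, an RNA-binding protein gene of neurons, was at -0.30 (0.08), and it was called by DESeq2 (0.0151). The interferon genes Ifna4 and Ifne were not tested, so of the 6 neighbours 4 were, with none called by edgeR and 2 at an unadjusted p under 0.05. Log2 fold changes of these 4 ran from -0.50 to 0.01, while that of Cdkn2a was 4.49.

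**Figure D4:**
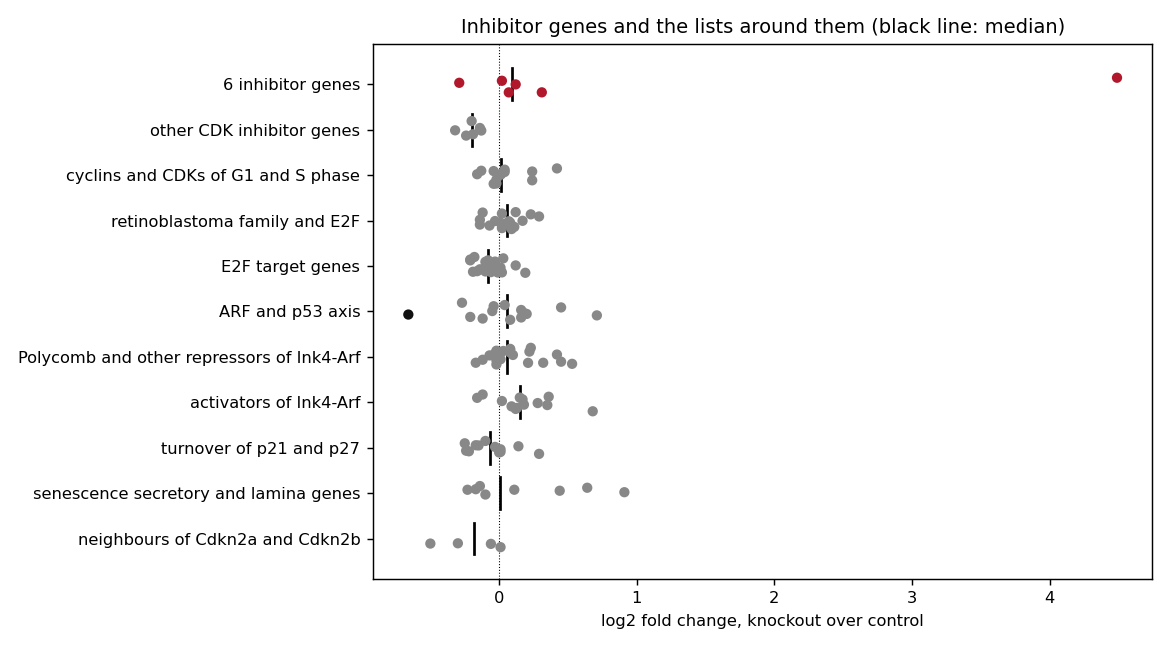
Log2 fold change of knockouts over controls (x axis) for the 6 inhibitor genes (red) and for the tested genes of 10 lists around them (grey, or black where called by edgeR), with a black line at each median. Cdkn2a lies at 4.49, to the right of every gene of the lists, and the called gene at -0.66.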

How the data were processed

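Stranded KAPA libraries were prepared from polyadenylated RNA of 6 whole embryos, per the labels' protocols. The authors deposited whole-number counts per gene symbol for each embryo, with no normalization. The mm9 build and the tools HTSeq, Bowtie2, TopHat2 and Trimmomatic are named in the submitters' processing notes, but no source used here gives the strand setting or the annotation. Rows that name no gene (alignments outside genes, 9.79% to 18.3%, not unique, 18.2% to 22.6%, and ambiguous, 0.531% to 0.724%) stayed out of library sizes and tests. Counts of repeat names were not used here.

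The quasi-likelihood F test of edgeR 4.0.16 (R 4.3.3) was applied with TMM scaling, a robust fit, filterByExpr (minimum count 10, minimum total 15), no term besides group, Benjamini-Hochberg adjustment over 15075 genes and a threshold of 0.05. SE was taken as the absolute log2 fold change divided by the root of F. Log2 CPM used a prior count of 2. Intervals at 95% are exact Poisson for a count and exact binomial (Clopper-Pearson) for a ratio of sums. Lengths came from GENCODE M21 (GRCm38) and promoter windows from RefSeq by symbol, matching all 6 genes.

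The members and lists were chosen with earlier results of these data known. Genes named were the 6 members, H3f3a, H3f3b, Trp53, Mtap, Dmrta1, in each list the called genes or otherwise the 2 with the smallest p, and the nearest profiles, and 2 genes that this rule picked are not reported here. Alternatives were RLE scaling, library totals, no filter, DESeq2 1.42.0, Rn45s left out, the replicate number as a block, and each library left out.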

Additional observations from a re-analysis of the deposited data

How the results depend on the processing

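The fitted log2 fold changes of the 6 inhibitor genes kept their sign under RLE scaling, library totals, no filter, DESeq2, Rn45s left out and the replicate block, with Cdkn2a at 4.45 to 4.60, Cdkn2b at 0.29 to 0.37, Cdkn2c at 0.02 to 0.07, Cdkn2d at -0.32 to -0.24, Cdkn1a at 0.12 to 0.18 and Cdkn1b at 0.07 to 0.13. With each library left out they ran from 3.81 to 4.91 for Cdkn2a, 0.06 to 0.68 for Cdkn2b, -0.14 to 0.10 for Cdkn2c, -0.47 to -0.07 for Cdkn2d, 0.02 to 0.21 for Cdkn1a and 0.03 to 0.11 for Cdkn1b, so that only Cdkn2c changed sign, without control 2. Genes called higher and lower numbered 83 and 144, against 456 and 323 by DESeq2, 333 and 256 with the replicate block, and 144 higher without a filter. With each library left out they numbered 7 to 1159 and 53 to 504. Of the pathway genes, 0 were called higher and 1 lower, against 2 and 2 by DESeq2, 0 lower with library totals and 2 lower with the replicate block, and with each library left out 0 to 7 higher and 0 to 3 lower. The cause was not tested. Deviations from the group means correlated at -0.086, 0.175 and 0.264 between same-numbered embryos. Embryos of different number were not compared, so these values cannot tell whether the numbers pair embryos. Library totals moved the median of all genes to 0.06. Depth limits Cdkn2a most, with 1 or 2 counts per control.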
